A study of Mus musculus with 18 samples.

Results

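Mouse oocytes that reached metaphase II during in vitro maturation with MSC present were compared between 2 ages of donor: 3 oocytes from 12-month-old mice (12m) and 3 oocytes from 6-week-old mice (6wk). They are 6 of the 18 single-oocyte libraries of the series and were taken by their source labels, MSC-IVM-MII-12m and MSC-IVM-MII-6wk. The labels do not spell out MSC. All mice were wild-type C57BL/6, no gene was altered in either group, and per the labels the co-culture ran overnight. The other libraries are germinal vesicle (GV) oocytes and metaphase II oocytes matured without MSC, 3 of each at each age. After soft lysis the nucleus was pelleted and removed, and the remaining lysate of each oocyte was made into a SMART-seq2 library, so the values are those of cytoplasmic mRNA with a poly(A) tail.

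A fully grown oocyte is held at the GV stage, where transcription has largely stopped. When meiosis resumes, the germinal vesicle breaks down, the first polar body is extruded and the oocyte arrests again at metaphase II. Until the embryo's own genome is switched on, protein synthesis draws on stored maternal mRNA, and many such mRNAs are translated or degraded on a schedule set by their 3' ends. Errors of chromosome segregation in this division become more frequent as females age, which is why ovarian ageing is often studied in metaphase II oocytes.

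The labels name no animal or culture for an oocyte. Each group of 3 oocytes therefore counted as 1 sample, and no test or p-value is given. A level is in CPM, the count of a gene scaled to a common library size. A difference is the mean of log2(CPM + 1) at 12m minus that at 6wk, and a gene past a difference of 1, a 2-fold difference on that scale, is called higher or lower. The groups of a gene are said to be apart where every oocyte of one age lay above every oocyte of the other. An SD is the spread over the 3 oocytes of a group. Where a gene is said to be some fold lower, the fold is the ratio of mean CPM between the ages. It is a second measure and need not match the log2 difference beside it.

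The 12m libraries held 1914072, 7369629 and 4534897 counts and the 6wk libraries 4287123, 3105405 and 3148140. The 13 oocyte markers, among them Zp1, Zp2, Zp3, Gdf9 and Bmp15, had counts in all 6 libraries. The title prefix was O04 for 12m oocyte 1 and O05 for the other two, and Y01 for 6wk oocyte 1 and Y03 for the other two. The labels do not explain the prefixes, and since 0 of them occur at both ages, age and prefix cannot be told apart. The 3 oocytes of 12m were less alike (Pearson r of log2 levels across genes 0.764 to 0.818) than the 3 of 6wk (0.824 to 0.884), and pairs of different age fell across the same range (0.765 to 0.868). A pair of libraries stood out. The first 12m oocyte had the lowest depth and the fewest genes with a count (8612, against 10104 to 13117 in the other 5). The first 6wk oocyte had the most genes with a count (13117) and the lowest mitochondrial share of counts (3.03%, against 7.66% to 13.2% in the others).

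Among the 4501 genes of at least 20 CPM, 26 were more than 4-fold above every other oocyte in the first 6wk oocyte, as were 26 in the first 12m oocyte, against 0 to 2 in each of the other 4. Of the 26 in the 6wk oocyte, 17 (65.4%) stood out in the same way in the Y01 oocyte matured without MSC, where they made up 12.7% of such genes. Mos, the kinase that maintains metaphase II arrest, was at 643 CPM in it and at 0.278 to 12.0 CPM in the other 5, while the 6 GV oocytes ranged from 546 to 1973 CPM. Plat, tissue plasminogen activator, was at 1967 CPM against at most 127 CPM, and Gdf9, an oocyte growth factor, at 12657 CPM against at most 2218 CPM. Mos and Plat were chosen here after their values were seen. Across all 4501 genes, the difference between the Y01 oocyte and the 2 Y03 oocytes of 6wk without MSC had r = 0.727 with the difference between the Y01 oocyte and the 2 Y03 oocytes of the co-cultured group. That correlation runs over genes of libraries that share a prefix and is a description. At 12m the corresponding r between O04 and O05 oocytes was 0.0456. Across all genes the levels of the first 6wk oocyte had r = 0.671 with the mean of the GV oocytes, and those of the other co-cultured oocytes 0.568 to 0.734. Values without it are given below for several genes and lists.

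Of 12037 genes kept, 930 were higher at 12m past 2-fold (7.73%) and 1831 were lower (15.2%), around a median difference of −0.12 for all genes. Of the 1831 lower genes, 1121 (61.2%) were at 0 in the first 12m oocyte, the shallowest library, against 27.0% and 23.3% in the other two. Of all genes kept, 34.1% were at 0 in that oocyte and 19.9% and 16.6% in the other two. Of the 930 higher genes, 41.0% and 39.8% were at 0 in oocytes 2 and 3 of 6wk, beside 23.4% and 22.5% of all genes kept. Without the first 12m oocyte the counts were 1240 higher (10.3%) and 1418 lower (11.8%), with a median of 0.00. Without the first 6wk oocyte they were 1649 (13.7%) and 1844 (15.3%), again with a median of 0.00. Leave-out counts of the lists below are to be read beside these shares. Without the second 12m oocyte the counts were 1418 and 2528. Among the 4501 genes with a group mean of at least 20 CPM, 167 were apart and higher at 12m (3.71%) and 278 were apart and lower (6.18%). Both apart and past 2-fold were 78 higher (1.73%) and 186 lower (4.13%) genes. When library sizes were taken without the mitochondrially encoded genes, the median of all genes moved from −0.12 to 0.00, so differences are best read relative to it.

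The 12 largest differences downwards among named genes of at least 20 CPM whose groups were apart joined genes of varied function. Dnajb14, which encodes an Hsp70 helper anchored in the endoplasmic reticulum (chromosome 3, 137867675 to 137916557, GRCm38), was the most abundant of them. Its level was 48.2, 19.0 and 23.0 CPM in the 12m oocytes and 147, 557 and 356 CPM in the 6wk oocytes. Each 6wk oocyte was well above each 12m oocyte, a difference of −3.43 (−3.96 to −3.003 with each oocyte left out in turn). Summed counts were 361 (exact Poisson 95% interval 325 to 400) at 12m and 3393 (3280 to 3509) at 6wk. Such intervals cover the counting error of reads only. The reads carry no molecular identifiers and can be copies of one molecule, so the intervals do not cover the counting of molecules. Nor do they cover the spread between oocytes.

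Tex19.1, which restrains retrotransposons in germ cells (chromosome 11, 121146143 to 121148319), was at 18.7, 40.1 and 30.7 CPM at 12m and at 227, 203 and 161 CPM at 6wk. The 2 groups were compact and far apart, at 29.9 ± 10.7 against 197 ± 33.6 CPM, 6.59-fold lower at 12m. Calb1, the calcium-binding protein calbindin (chromosome 4, 15881264 to 15908064), had the largest difference, −4.20. It had no count in 2 of the 12m oocytes and 5.94 CPM in the third, against 10.6, 49.1 and 73.2 CPM at 6wk. Pole2, a subunit of DNA polymerase epsilon, was at 4.46, 21.2 and 12.9 CPM against 63.2, 128 and 92.2 CPM (−2.95).

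Most of the other lower genes were weakly detected, and the first 12m oocyte was at 0 for several. Cxcr3, a chemokine receptor, was at 0, 10.3 and 18.4 CPM against 127, 87.9 and 19.3 CPM (−3.35), so its groups were only just apart. Gpd2, the mitochondrial glycerol-3-phosphate dehydrogenase, was at 0, 12.8 and 8.51 CPM against 102.3, 27.7 and 24.9 CPM (−3.06). Rdh12, a retinol dehydrogenase, was at 0, 6.94 and 13.7 CPM against 100.99, 25.1 and 27.6 CPM (−3.12). In both genes the first 6wk oocyte was far above the other two, and without it the differences were −2.42 for Gpd2 and −2.48 for Rdh12. Prl8a2, of the prolactin family, Bbx, a transcription factor with an HMG box, the lectin receptor gene Clec12a and the LIM protein gene Crip2 completed the set, with differences from −3.20 to −2.69. The remaining member is Cyp19a1, the aromatase of granulosa cells, described with the other-cell markers.

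**Figure D1:**
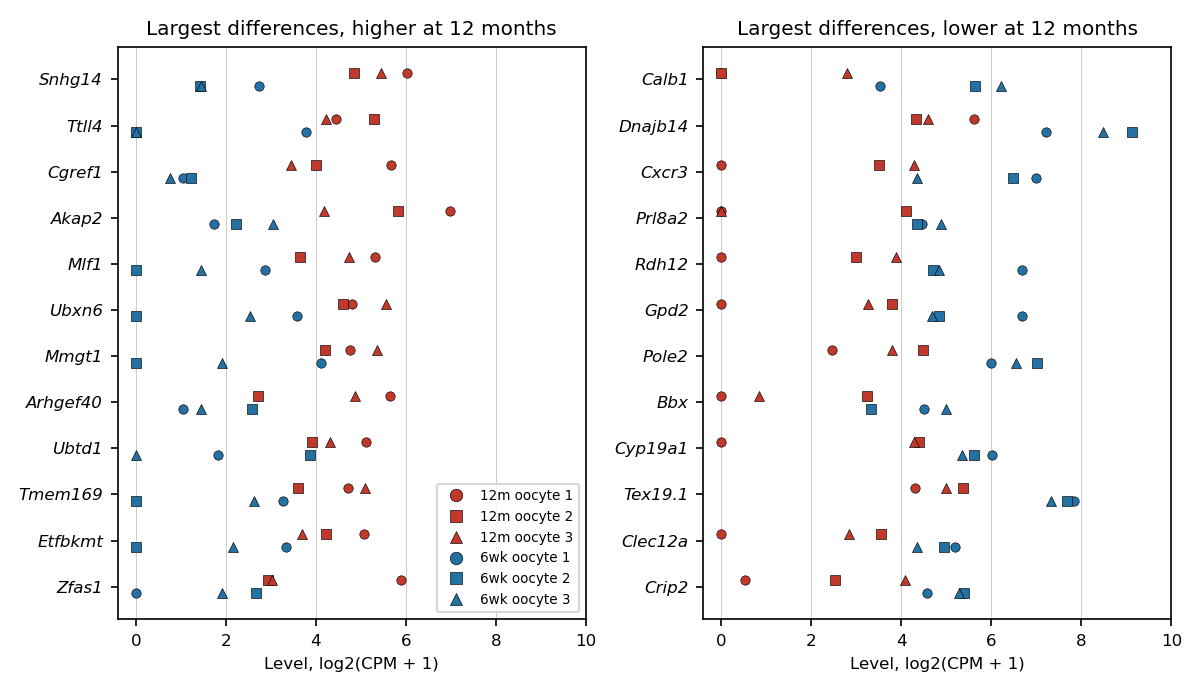
Levels in each of the 6 co-cultured oocytes, log2(CPM + 1), of the 12 named genes with the largest difference in each direction; red marks 12m, blue 6wk, and the marker shape the oocyte number. No red and blue symbols overlap in range within a gene, because the genes were chosen for that, and several genes lie at 0 in the first 12m oocyte or in oocyte 2 or 3 of 6wk.

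Upwards, the differences were carried by mRNAs of moderate level, from 20.7 to 66.6 CPM in the mean of the 12m oocytes. Snhg14, a long noncoding RNA of the imprinted Prader-Willi and Angelman domain (chromosome 7, 59307924 to 59975759), was at 63.8, 27.9 and 42.8 CPM at 12m and at 5.70, 1.67 and 1.73 CPM at 6wk. The groups were clearly apart (3.57), but its exons overlap Ube3a on the opposite strand, and the library kit does not record strand, so reads of the 2 genes cannot be told apart. Cgref1, a growth regulator with an EF-hand domain, was at 49.97, 15.1 and 9.90 CPM against 1.06, 1.34 and 0.691 CPM (3.37). Ttll4, an enzyme that adds glutamate chains to tubulin, was at 20.97, 38.0 and 17.6 CPM against 12.7, 0 and 0 CPM (3.40). The first 6wk oocyte thus lay closer to the 12m oocytes than the other two did. Akap2, an anchor of protein kinase A, was at 126, 56.2 and 17.2 CPM against 2.32, 3.68 and 7.25 CPM (3.34) and shares exons with the read-through gene Pakap.

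The other 8 of the 12 had differences from 2.43 to 3.13. They were Mlf1, Ubxn6, a cofactor of the ATPase p97, Mmgt1, a subunit of the endoplasmic reticulum membrane insertion complex, Arhgef40, Ubtd1, Tmem169, Etfbkmt, a mitochondrial lysine methyltransferase, and the noncoding RNA Zfas1. Ubxn6 overlaps Chaf1a, Arhgef40 overlaps Zfp219 and Zfas1 overlaps Znfx1, each on the opposite strand. All 24 of these genes kept their direction and stayed past 2-fold in each of the 15 other settings tried. They were chosen from these same oocytes for groups apart, so their direction could not change when an oocyte was left out. The settings are therefore no independent check of them.

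The oocyte-specific and maternal effect list leaned to lower values at 12m. Of its 41 members kept, 0 were higher and 9 lower past 2-fold, beside 7.73% and 15.2% of all genes, and 9 were apart, each lower at 12m, beside 2.94% of all genes apart and higher and 4.85% apart and lower. The median was −0.36 against −0.12 for all genes. Other scalings and the deposited TPM left 7 to 10 members lower and 0 higher. Without the first 6wk oocyte 2 were higher and 7 lower, and the median was −0.07, against 0.00 for all genes. The list as a whole did not pass the limit of 0.5 from all genes that was set for calling a list.

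H1foo, the oocyte linker histone (chromosome 6, 115944938 to 115950236), was the most abundant of the 9. It was at 1696, 7813 and 1758 CPM in the 12m oocytes and at 18950, 10101 and 12252 CPM in the 6wk oocytes. The second 12m oocyte approached the lowest 6wk oocyte and the others were far below, 3.67-fold lower in the mean (−2.22). Oas1d, an oocyte-expressed relative of the antiviral oligoadenylate synthetases, was at 905, 2125 and 2413 CPM against 7975, 5205 and 7137 CPM (−1.998). Zar1, a maternal factor that binds stored mRNA, was at 842, 465 and 825 CPM against 2108, 1154 and 1438 CPM (−1.15).

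Nlrp2, a maternal effect gene, was weaker, at 10.3, 6.25 and 16.8 CPM against 25.6, 28.7 and 35.6 CPM (−1.44). Oosp1, an oocyte-secreted protein gene, was at 1555, 1210 and 1308 CPM against 2152, 2427 and 1878 CPM (−0.66), apart but short of 2-fold. The remaining 4 apart members, chosen for naming after their values were seen, were the oocyte homeobox genes Obox1 (−1.43) and Obox5 (−1.07), Omt2b (−1.34) and Oog3 (−0.76). Oas1d, the Obox genes, Omt2b and Oog3 belong to families of close copies, so the sharing of reads among copies makes their values less certain.

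The defining oocyte markers did not follow one direction. Summed over the 13 markers, the level was 16278, 17710 and 15312 CPM at 12m and 44306, 28980 and 30248 CPM at 6wk, and without H1foo it was 14582, 9897 and 13554 CPM against 25356, 18879 and 17997 CPM. Dppa3, a protector of the maternal genome's methylation, was at 6819, 4522 and 7311 CPM against 4852, 11585 and 11834 CPM, with overlapping groups. Zp1, Zp2 and Zp3, which encode the zona pellucida, were highest in the first 6wk oocyte: Zp1 was at 18.7, 59.0 and 108 CPM against 701, 35.1 and 13.8 CPM. Matured without MSC, the Y01 oocyte did not stand out for Zp1, at 53.0 CPM beside 54.4 and 36.8 CPM in the Y03 oocytes, nor clearly for Zp3, at 115 CPM beside 45.7 and 80.2 CPM. Gdf9 was at 2073, 2218 and 1613 CPM against 12657, 1623 and 1353 CPM. The Gdf9 difference was −0.64 with all oocytes and 0.40 without that oocyte, and that of Zp1 was −0.51 and 1.13. Bmp15, a partner of Gdf9, was at 474, 213 and 813 CPM against 492, 326 and 276 CPM, with no separation of the ages.

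Within the machinery of meiotic division, kinases, cyclins and anaphase-promoting complex genes gave 2 higher (4.08%) and 8 lower (16.3%) of 49 members past 2-fold, near the 15.2% of all genes that were lower and under the 7.73% that were higher. Apart were 1 higher (2.04%) and 5 lower (10.2%), beside 2.94% and 4.85% of all genes. The median was −0.45. Cdc20, the activator of the anaphase-promoting complex (chromosome 4, 118432901 to 118437352), was at 57.6, 170 and 133 CPM at 12m and at 460, 409 and 524 CPM at 6wk. The 6wk oocytes were tightly grouped and the 12m oocytes lay at 120 ± 57.1 against 465 ± 57.5 CPM, 3.87-fold lower (−2.07). An exon of Cdc20 overlaps Elovl1 on the opposite strand. Aurka, the Aurora A kinase that builds spindle poles, was at 82.1, 120 and 175 CPM against 206, 339 and 260 CPM (−1.12). Bora, an activator of Aurora A, was at 47.7, 32.1 and 45.5 CPM against 93.8, 70.5 and 54.9 CPM (−0.78).

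Named after their values were seen, Ccnb1, the cyclin B1 of maturation-promoting factor, was at 1080, 1029 and 1070 CPM against 1453, 1701 and 2052 CPM (−0.70), and Arpp19, an inhibitor of protein phosphatase 2A, had a difference of −0.63. The one member apart upwards was Wee2, the oocyte kinase that holds CDK1 inactive, at 145, 147 and 168 CPM against 104, 105.3 and 126 CPM (0.46). Thus Ccnb1 and Wee2 showed narrow ranges within each age, small differences and no overlap. Mos was lower past 2-fold with all oocytes (−2.36), and its difference was 0.04 without the first 6wk oocyte.

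Spindle checkpoint and kinetochore genes gave 2 higher (4.35%) and 6 lower (13.0%) of 46 past 2-fold, beside 7.73% and 15.2% of all genes, with a median of −0.13, close to that of all genes. Apart were 1 higher (2.17%) and 7 lower (15.2%), beside 2.94% and 4.85% of all genes. Without the first 6wk oocyte 4 were higher and 9 lower past 2-fold. Ndc80, the microtubule-binding core of the kinetochore, was at 12.5, 23.6 and 34.2 CPM against 115, 186 and 97.0 CPM, 5.65-fold lower at 12m (−2.50). Cenpu was at 49.1, 41.4 and 77.4 CPM against 108, 154 and 191 CPM (−1.43) and Cenpk at 30.3, 7.78 and 34.4 CPM against 61.7, 37.8 and 49.4 CPM (−1.22). Both belong to the inner kinetochore. Mad2l1, the checkpoint protein that restrains Cdc20, was at 580, 915 and 931 CPM against 943, 1699 and 1810 CPM (−0.85). It was named after its values were seen, and its groups were only just apart.

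Bub1b, a checkpoint kinase that is also named after its values were seen, had a large difference of −3.04 without separation of the groups. It was at 0, 47.1 and 8.71 CPM against 261, 28.1 and 33.2 CPM, so the first 6wk oocyte carried most of its level, and without that oocyte the difference was −2.02. Cohesin and cohesion genes gave 2 higher (8.33%) and 8 lower (33.3%) of 24 past 2-fold, beside 7.73% and 15.2% of all genes, and 2 higher and 4 lower without the first 6wk oocyte. Apart were 1 higher (4.17%) and 2 lower (8.33%) members, beside 2.94% and 4.85% of all genes, which is few genes in a list of 24. Esco2, the acetyltransferase that locks cohesin on DNA, was at 186, 398 and 206 CPM against 458, 437 and 765 CPM (−1.11). Ppp2r1a, the scaffold subunit of the phosphatase that protects centromeric cohesin, was at 53.1, 79.6 and 37.6 CPM against 209, 98.6 and 113 CPM (−1.28). The member apart upwards was the weakly detected Ppp2r5d, a regulatory subunit of protein phosphatase 2A named after its values were seen, at 17.4, 9.86 and 9.90 CPM against 5.92, 2.34 and 1.38 CPM (1.77).

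Motor and tubulin genes gave 1 higher (1.52%) and 17 lower (25.8%) of 66 past 2-fold, beside 7.73% and 15.2% of all genes, with a median of −0.45. Apart were 1 higher (1.52%) and 5 lower (7.58%), beside 2.94% and 4.85% of all genes. Without the first 6wk oocyte 5 were higher (7.58%) and 13 lower (19.7%) past 2-fold, beside 13.7% and 15.3% of all genes. Without the first 12m oocyte 2 were higher (3.03%) and 9 lower (13.6%), beside 10.3% and 11.8% of all genes. The largest difference of the list was upwards, in Bicd1, a dynein adaptor named after its values were seen, at 41.0, 3.33 and 5.74 CPM against 0.845, 0 and 0 CPM (3.13). It differed by 3.84 without MSC and by 4.40 in GV oocytes. Dync1i2, a dynein chain, was at 71.8, 128 and 99.0 CPM against 246, 183 and 144 CPM (−0.94). Tubb3, a beta-tubulin, was at 458, 482 and 390 CPM against 674, 873 and 655 CPM (−0.72). The dynactin gene Dctn4 was weak at 12m, at 0, 9.997 and 7.72 CPM against 31.3, 17.0 and 19.0 CPM (−2.31).

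**Figure D2:**
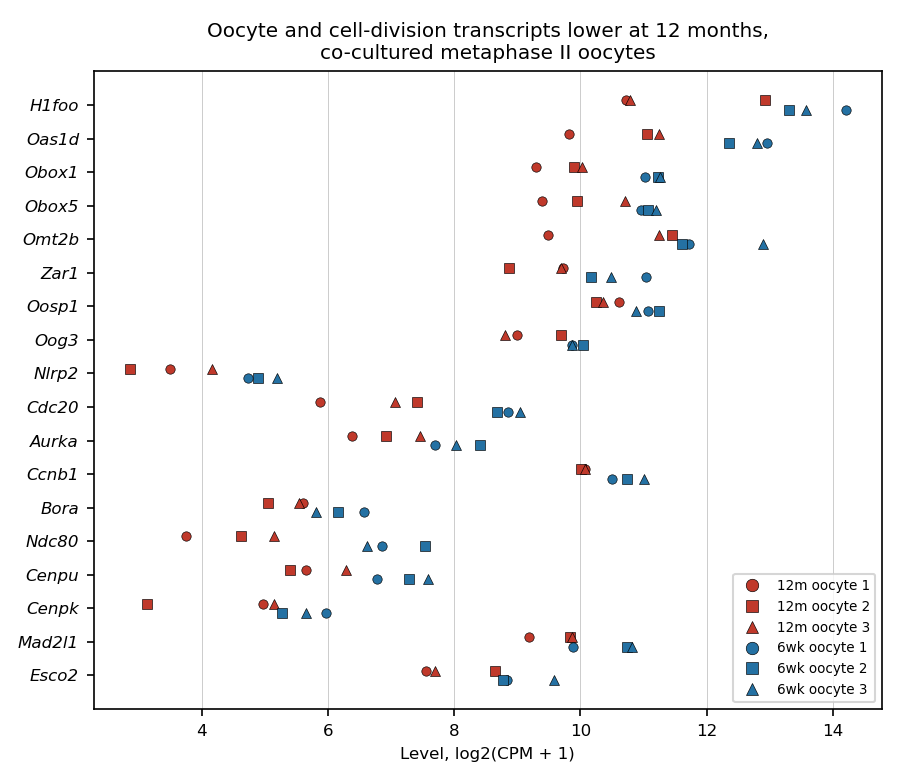
Levels in each co-cultured oocyte, log2(CPM + 1), of 18 oocyte-specific and cell-division genes whose groups were apart with lower values at 12m; red marks 12m, blue 6wk, and the marker shape the oocyte number. The genes are shown because their groups did not overlap. H1foo and Oas1d are the most abundant, and in Ndc80 and Cdc20 the gap between the ages is widest among the division genes.

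Many maternal mRNAs that are translated late in maturation carry a cytoplasmic polyadenylation element near the poly(A) signal, to which the CPEB protein binds. The last 100 bases of the annotated transcript were searched for TTTTAT or TTTTAAT on the sense strand, and for the signals AATAAA or ATTAAA. The following 30-base stretches are shown because they belong to division or maternal genes with separated groups, with 1 gene higher at 12m (Ubtd1) for contrast. They are from GENCODE M21 transcripts (GRCm38), 5' to 3' in the sense direction, with the element and, where it falls within the stretch, the signal in capitals.

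Cdc20 (chr4:118432910-118432939, minus strand): tttaTTTTATtttttctAATAAAgttcgta

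Aurka (chr2:172356229-172356258, minus strand): tattTTTTATgttggagttctgtcatgtat

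Ndc80 (chr17:71496156-71496185, minus strand): agtaTTTTATccccaaattatgataatatg

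H1foo (chr6:115950165-115950194, plus strand): aagcTTTTATtgtctaataagctgtcacaa

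Pole2 (chr12:69201800-69201829, minus strand): TTTTATcttatgtattttgtatATTAAAtt

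Ubtd1 (chr19:42034610-42034639, plus strand): tctgcaTTTTATcAATAAAgcctttgctcc

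In Cdc20 the element starts 35 bases and the signal 22 bases before the annotated end, and in H1foo the element starts 63 bases before it. Of the genes lower at 12m with separated groups and at least 20 CPM, 79 of 267 had an element (29.6%), against 23.1% of all 4234 coding genes of that level. Of the genes higher at 12m with separated groups, 35 of 147 had one (23.8%). Among those also past 2-fold the shares were 31.1% of 180 lower and 18.8% of 64 higher genes. Without MSC, the genes lower at 12m with separated groups had an element in 23.6% of 140 cases, and 14.5% of the higher ones had one. In GV oocytes the shares were 17.1% of 245 lower and 16.1% of 87 higher genes. In both kinds of oocyte the limit of 20 CPM was set by their own levels. The share over all genes of that level was not computed for them, so the 23.1% is not their background. The shares are descriptions: a match is no site shown to act, and the annotated end may not be the one used in oocytes. Zar1, Dnajb14 and Tex19.1 had no match in this window.

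Mitochondrially encoded mRNA was the only one of the 28 lists to pass the limit set for a list, and it was higher at 12m. Its 13 members had a median of 0.56, which lay 0.68 above that of all genes, and 4 were higher and 0 lower past 2-fold. In none of the 13 were the groups apart (2 were when library totals served as the scale), and the distance from all genes ranged from 0.11 without the first 6wk oocyte to 1.20 without the third 12m oocyte. The mitochondrial share of counts was 13.2%, 11.4% and 8.17% at 12m (10.9% ± 2.52) and 3.03%, 8.65% and 7.66% at 6wk (6.45% ± 3.001). The second 6wk oocyte thus lay within the range of the 12m oocytes, and the third just below it. mt-Cytb, the cytochrome b mRNA, was at 29099, 40932 and 29673 CPM against 10657, 30898 and 33277 CPM (0.56). mt-Co1, a subunit of cytochrome oxidase, was at 14142, 19664 and 7842 CPM against 3778, 8325 and 6105 CPM (1.17). Without the first 6wk oocyte, 0 of the 13 were past 2-fold.

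**Figure D3:**
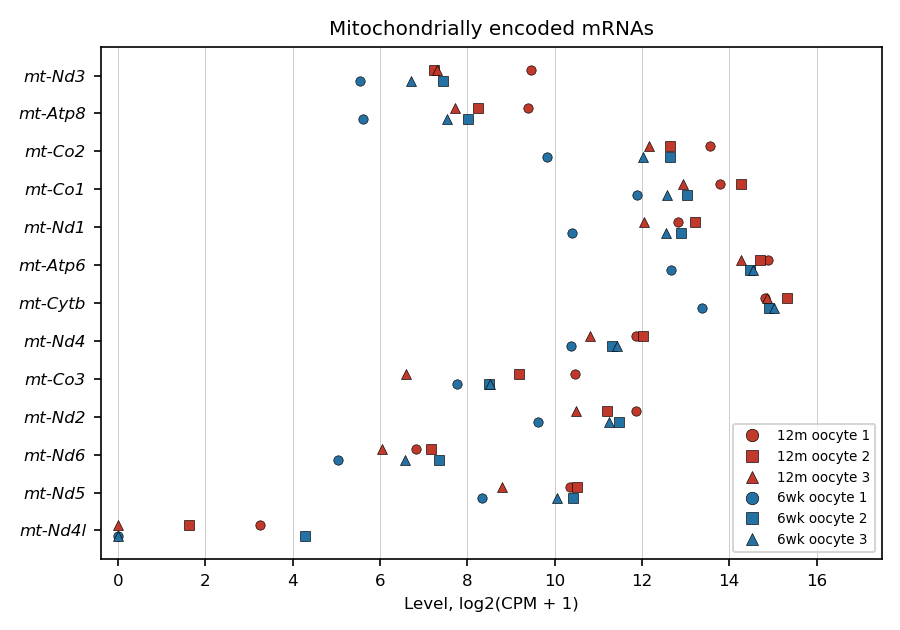
Levels in each co-cultured oocyte, log2(CPM + 1), of the 13 mitochondrially encoded mRNAs; red marks 12m, blue 6wk, and the marker shape the oocyte number. The first 6wk oocyte (blue circle) is the lowest or among the lowest for most genes. The second 6wk oocyte lies within the range of the 12m oocytes except in mt-Nd4l and mt-Nd6, where it is above all 3. The third 6wk oocyte lies below all 3 12m oocytes in mt-Nd3, mt-Co1, mt-Co2 and mt-Atp8, the 4 genes past 2-fold.

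With all 6 oocytes, nuclear genes of the respiratory chain did not follow the mitochondrial ones, but this depended on the oocytes included. Of 77 members, 6 were higher and 11 lower past 2-fold (7.79% and 14.3%, near the shares of all genes), with a median of −0.14. Without the first 6wk oocyte 15 were higher (19.5%) and 5 lower (6.49%), beside 13.7% and 15.3% of all genes. The distance of the list median from that of all genes ranged from −0.34 without the first 12m oocyte to 0.58 without the second. In metaphase II oocytes matured without MSC it was 0.63, beside 0.43 for the mitochondrially encoded mRNAs. Atp5b, the catalytic beta subunit of ATP synthase, was at 261, 214 and 305.3 CPM against 759, 516 and 642 CPM (−1.29), with groups well apart. Glycolysis and citrate cycle genes gave 2 higher and 12 lower of 50, beside 7.73% and 15.2% of all genes, and a median of −0.33 against −0.12. Mdh1, cytosolic malate dehydrogenase, was at 120, 88.7 and 153 CPM against 306.1, 472 and 340 CPM (−1.63). Taldo1, the transaldolase of the pentose phosphate pathway, was at 21.4, 40.7 and 21.6 CPM against 159, 73.9 and 62.9 CPM (−1.73). Idh3a, of the citrate cycle, was at 6.69, 18.7 and 37.4 CPM against 56.4, 43.8 and 51.1 CPM (−1.51).

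Cytosolic ribosomal protein genes gave 11 higher (13.6%) and 1 lower (1.23%) of 81 past 2-fold, beside 7.73% and 15.2% of all genes, with a median of 0.12. Apart were 5 higher (6.17%) and 2 lower (2.47%), beside 2.94% and 4.85% of all genes. Rps15a was at 327, 136 and 136 CPM against 104, 124 and 55.3 CPM (1.02), and Rpl29 at 43.7, 15.1 and 15.0 CPM against 4.01, 14.4 and 8.98 CPM (1.30). In both the separation was narrow and the first 12m oocyte was the highest. Under the other scalings and in TPM, 11 to 19 members were higher and 0 to 7 lower past 2-fold. Without the first 12m oocyte 4 were higher (4.94%) and 3 lower (3.7%), beside 10.3% and 11.8% of all genes. The list median was then 0.0018, against 0.00 for all genes, so the lean upwards rested on that oocyte. Without the first 6wk oocyte 15 were higher (18.5%) and 3 lower (3.7%), beside 13.7% and 15.3% of all genes. These genes have many pseudogene copies, which makes their values less certain. Among translation factors, 4 were higher (7.84%) and 5 lower (9.8%) of 51, beside 7.73% and 15.2% of all genes. Eif4a1, the helicase that unwinds 5' leaders, was at 214, 155 and 287 CPM against 411, 600 and 546 CPM (−1.27). Eif2s2, a subunit of the initiator tRNA carrier, was at 1708, 1303 and 1640 CPM against 523, 1125 and 986 CPM (0.88). Eif2b1, of its exchange factor, was nearly constant at 12m, at 1463, 1487 and 1473 CPM, against 2068, 2786 and 2708 CPM (−0.76).

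Proteasome genes had a median of −0.51, with 1 higher (2.78%) and 6 lower (16.7%) of 36, the latter near the 15.2% of all genes. Without the first 6wk oocyte 2 were higher (5.56%) and 10 lower (27.8%), beside 13.7% and 15.3% of all genes. Without the second 12m oocyte the list lay only 0.01 below all genes. Psmb6, a catalytic subunit, was at 119, 149 and 161 CPM against 215, 199 and 307 CPM (−0.73), and Psmc4, an ATPase of the cap, at 0, 7.78 and 12.7 CPM against 27.5, 25.7 and 38.3 CPM (−2.65). Cholesterol synthesis genes gave 0 higher and 7 lower (33.3%) of 21, beside 7.73% and 15.2% of all genes, with a median of −0.56. Without the first 6wk oocyte 1 was higher and 4 were lower, and 0 members of at least 20 CPM were apart. In the chaperonin that folds actin and tubulin, Cct7 was lower at 3.12, 19.0 and 41.6 CPM against 60.8, 130 and 91.2 CPM (−2.58), while Tcp1 was higher at 41.5, 53.3 and 48.3 CPM against 20.7, 39.8 and 16.2 CPM (0.97). Both genes overlap a neighbour on the opposite strand.

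DNA methylation and histone modification genes gave 3 higher (4.92%) and 14 lower (23.0%) of 61 past 2-fold, a share of lower genes above the 15.2% of all genes. Without the first 6wk oocyte the counts were 12 higher (19.7%) and 13 lower (21.3%), beside 13.7% and 15.3% of all genes. Without the first 12m oocyte they were 6 (9.84%) and 7 (11.5%), beside 10.3% and 11.8% of all genes. Hat1, a histone acetyltransferase, was at 57.1, 32.6 and 87.7 CPM against 213, 145 and 119 CPM (−1.48). Ezh1 was at 1.78, 26.8 and 22.6 CPM against 30.8, 27.4 and 79.1 CPM (−1.77), and Hdac1, a deacetylase, at 8.03, 0.417 and 8.71 CPM against 23.2, 17.7 and 30.0 CPM (−2.27). Spliceosome genes gave 1 higher (1.56%) and 9 lower (14.1%) of 64, the latter near the 15.2% of all genes. Without the first 6wk oocyte 8 were higher (12.5%) and 9 lower (14.1%), both near the shares of all genes without it. Hnrnpk was at 129, 122 and 167 CPM against 691, 344 and 287 CPM (−1.56) and Hnrnpc at 75.4, 245 and 245 CPM against 291, 474 and 625 CPM (−1.41). Both encode RNA-binding proteins of the nucleus.

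Stress and survival genes were split. The counts here stand beside 7.73% higher and 15.2% lower of all genes (13.7% and 15.3% without the first 6wk oocyte). Apoptosis genes gave 3 higher and 3 lower of 26 (11.5% each). Birc3, an inhibitor of apoptosis, was at 58.9, 145 and 59.6 CPM against 276, 159 and 208 CPM (−1.38), and Diablo, which opposes such inhibitors, at 41.9, 28.6 and 28.1 CPM against 19.0, 23.1 and 20.4 CPM (0.62). Autophagy and lysosome genes gave 2 higher (3.39%) and 12 lower (20.3%) of 59, and 7 higher and 10 lower without the first 6wk oocyte. Bnip3l, a receptor for the removal of mitochondria, was at 269, 332 and 426 CPM against 206, 230 and 235 CPM (0.59). Antioxidant genes gave 1 higher (2.44%) and 3 lower (7.32%) of 41 (4 and 5 without the first 6wk oocyte), and their most abundant member, Prdx1, overlapped between the ages at 3205, 1136 and 2570 CPM against 1221, 1763 and 1330 CPM. DNA repair genes gave 3 higher (4.55%) and 11 lower (16.7%) of 66, the latter near the 15.2% of all genes. Apart were 5 higher (7.58%) and 2 lower (3.03%), beside 2.94% and 4.85% of all genes. Without the first 12m oocyte 8 were higher and 8 lower (12.1% each), beside 10.3% and 11.8% of all genes. Mdm4, a regulator of p53, was at 1065, 981 and 686 CPM against 647, 613 and 672 CPM (0.47, and −0.22 in the deposited TPM).

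Signalling and egg activation genes gave few separated groups, as did all genes (2.94% apart and higher, 4.85% apart and lower). The shares were 2.94% and 0% for calcium store, 0% and 4.44% for PI3K and mTOR, and 0% and 2.86% for deadenylation. Calcium store and egg activation genes gave 3 higher (8.82%) and 6 lower (17.6%) of 34 past 2-fold, beside 7.73% and 15.2% of all genes. Without the first 6wk oocyte they gave 3 (8.82%) and 2 (5.88%), beside 13.7% and 15.3% of all genes. Itpr2, a calcium release channel, was at 1409, 967 and 641 CPM at 12m against 384, 580 and 465 CPM at 6wk (1.02), and was the one member apart. In the PI3K and mTOR list 3 were higher (6.67%) and 6 lower (13.3%) of 45 (10 and 5 without the first 6wk oocyte), and Rheb, the activator of mTOR complex 1, was at 248, 293 and 242 CPM against 364, 449 and 434 CPM (−0.67). In the deadenylation and mRNA storage list 5 were higher and 7 lower of 70, and without the first 6wk oocyte 13 and 4. Its most abundant member, Btg4, the adaptor that brings the deadenylase to maternal mRNA, was at 4756, 5930 and 7558 CPM against 5269, 8055 and 8214 CPM, with overlapping groups (−0.24).

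**Figure D4:**
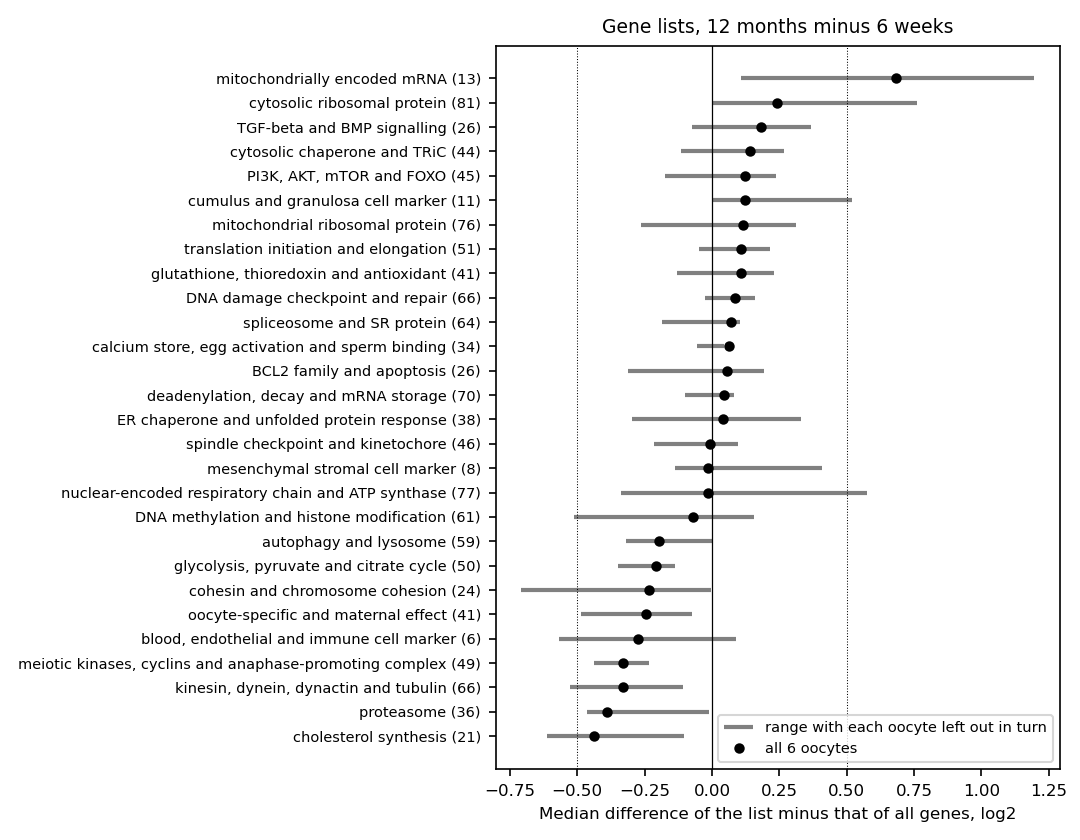
Median difference (12m minus 6wk, log2) of each of the 28 gene lists minus that of all genes, with the number of measured members in brackets; points use all 6 oocytes, grey bars span the values with each oocyte left out in turn, and dotted lines mark 0.5 either side of 0. Only the mitochondrially encoded mRNAs lie beyond a dotted line, at 0.68, with a bar from 0.11 to 1.20.

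Markers of other cells were mostly at or near 0. Of 30 cumulus and granulosa cell markers, 16 had no count in any of the 6 oocytes, as had 15 of 30 mesenchymal stromal markers and 17 of 27 blood, endothelial and immune markers. The granulosa markers summed to 0, 53.6 and 38.0 CPM at 12m and to 90.8, 66.5 and 57.7 CPM at 6wk. The largest single part was Cyp19a1, at 0, 19.99 and 18.6 CPM against 63.6, 47.8 and 39.7 CPM (−2.76), one of the 12 largest differences downwards. The mesenchymal markers summed to 75.4, 68.5 and 129 CPM against 97.2, 115 and 85.0 CPM, with Mmp2, a gelatinase, as the largest part in each oocyte, at 43.7, 36.2 and 76.2 CPM against 52.4, 69.9 and 59.4 CPM. The blood markers summed to 24.1, 16.2 and 12.3 CPM against 16.5, 12.0 and 19.3 CPM. The mesenchymal and blood sums overlapped between the ages, while the granulosa sum was lower in each 12m oocyte. Of the 11 granulosa markers kept, Cyp19a1 was the only one apart, and the list median was 0.00. Granulosa markers with a count numbered 0, 7 and 7 at 12m and 9, 4 and 4 at 6wk. The part of granulosa transcripts in the differences was not tested.

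The same age contrast was set beside that of metaphase II oocytes matured without MSC and of GV oocytes, which share no library with it. Of the 144 named genes apart and higher with co-culture, 106 (73.6%) had the same sign without MSC and 90 (62.5%) in GV oocytes. Of the 254 apart and lower, 179 (70.5%) and 168 (66.1%) had the same sign. The median of all genes was 0.16 without MSC and 0.12 in GV oocytes, so a positive difference was the commoner sign in both. The share of all genes with each sign was not computed, so these percentages have no background beside them. Apart the same way without MSC were 19 of the higher genes (13.2% of the 144, and 6.29% of the 302 apart there) and 32 of the lower (12.6% of the 254, and 23.0% of the 139 apart there), while 1 and 4 were apart in the opposite direction. Across the 4501 genes of at least 20 CPM the differences with and without MSC had a Pearson r of 0.247, and those of co-cultured and GV oocytes a Pearson r of 0.166. These correlations run over genes, which are not replicates. Of all genes of at least 20 CPM in the comparison concerned, 7.59% were apart and higher at 12m and 3.2% apart and lower without MSC, and in GV oocytes the shares were 1.79% and 4.8%.

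A small set was apart the same way in all 3 kinds of oocyte: Cgref1 and Ing4 were higher at 12m, and Dnajb14, Prl8a2, Tex19.1, Eif4a1, Wtap, Trmt11 and Snx2 were lower. Dnajb14 differed by −3.43 with co-culture, −4.18 without MSC and −2.70 in GV oocytes. Tex19.1 differed by −2.73, −2.32 and −1.41, and Eif4a1 by −1.27, −1.02 and −0.84. Cgref1 differed by 3.37, 3.66 and 3.28. Wtap, a subunit of the m6A methyltransferase named here after its values were seen, was at 203, 342 and 167 CPM against 725, 528 and 714 CPM with co-culture, and differed by −1.52, −1.68 and −1.92. Ing4, a reader of histone methylation chosen in the same way, differed by 1.91, 2.30 and 1.72. All 3 contrasts are between mice of the same 2 ages, and no title prefix occurs at both ages in any of them. The prefixes O04, O05, Y01 and Y03 each recur in all 3 contrasts. Agreement that comes with age therefore cannot be told apart from agreement that comes with prefix, and the contrasts are not independent repeats.

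For 5 genes picked after their values were seen, the difference with co-culture was larger in size than in the other kinds of oocyte, with H1foo and Cdc20 lower past 2-fold without MSC as well. Ndc80 differed by −2.50 with co-culture, −0.89 without MSC and −0.21 in GV oocytes. Pole2 differed by −2.95, 0.04 and −1.05, and Ttll4 by 3.40, 0.12 and 0.36. H1foo differed by −2.22, −1.44 and 0.34, and Cdc20 by −2.07, −1.23 and −0.40. The median of all genes was −0.12 with co-culture, 0.16 without MSC and 0.12 in GV oocytes, so lists are set against it. In the same order, the oocyte-specific median lay at −0.24, −0.05 and −0.31 from that of all genes. That of the proteasome lay at −0.39, −0.15 and 0.04, and that of the mitochondrially encoded mRNAs at 0.68, 0.43 and 0.26. With 1 sample a group, whether these age differences differ from one another was not tested.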

How the data were processed

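Single-oocyte SMART-seq2 libraries were grouped by their source labels, with 3 oocytes in each group. The authors deposited, per the file headers, expected counts, TPM and FPKM for 47069 genes in each oocyte; FPKM was not used. Per the submitters' processing notes the build was GRCm38.p5, and TopHat2 2.1.1, Cufflinks, Trim Galore 0.4.5 and FastQC 0.11.8 were used. Which program and annotation gave the expected counts is not given in the sources used here. Such counts split reads among similar genes. Symbols and coordinates came from GENCODE M21, which matched 46574 identifiers.

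Expected counts, as deposited, were rounded, scaled by TMM and filtered by group over all 18 libraries with edgeR 4.0.16 (R 4.3.3), which left 12037 genes. The pseudocount was 1. Totals of 1914072 to 7369629 counts set the precision, and low values in the shallowest library are the least certain. TPM, as deposited by the authors, was an alternative, as were DESeq2 1.42.0 size factors, other pseudocounts and filters, group medians, thinning to equal depth and leaving out each oocyte. Named genes had at least 20 CPM in the higher group, groups apart and a symbol that is no predicted gene, Riken clone or pseudogene; the 12 largest each way were taken, and up to 3 from each of 28 lists, or its most abundant member, plus the oocyte markers. Some are not described. A list was called where its median lay at least 0.5 from that of all genes on the same side with each oocyte left out. The members and lists were chosen with earlier results of these data known. The values describing single libraries and the search of transcript ends were added with the data in view. The computation was tested on simulated counts. Python 3.11.15 was used with Matplotlib 3.10.9, SciPy 1.17.1, pandas 2.3.3 and NumPy 2.4.6.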

Additional observations from a re-analysis of the deposited data

Results flagged for a closer look

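Ubxn6, a cofactor of the ATPase p97, was apart in opposite directions with and without MSC. Its difference, 12m minus 6wk, was 2.94 in co-cultured oocytes and −1.02 in metaphase II oocytes matured without MSC; the difference between the 2 was not tested. Nlrp2, a maternal effect gene, differed by −1.44 in co-cultured oocytes and by 1.00 in GV oocytes, again with the groups apart each time, and that difference was not tested either.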

How the results depend on the processing

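With a pseudocount of 5, 263 genes were higher and 527 lower past 2-fold, and among genes of at least 20 CPM 239 and 581, against 930 and 1831. Leaving out each oocyte in turn gave 927 to 1649 higher and 1418 to 2543 lower genes. The distance of a list's median from that of all genes ranged, with each oocyte left out, from −0.22 to 0.10 for the spindle checkpoint and from −0.17 to 0.24 for PI3K and mTOR. With group medians it was −0.22 for cytosolic chaperones and −0.16 for DNA repair. For granulosa markers it was −1.46 (3 genes) with scaling and filter within the 6 libraries and −2.66 (1 gene) at 20 CPM, where fewer genes were kept. The cause of the other changes was not tested. All 24 largest genes stayed past 2-fold in the same direction in all 15 settings, and 79 of 90 named genes kept their sign. The 24 were chosen from these same oocytes for large differences and groups apart, so this is no independent check of them. No paired analysis was possible because the oocyte numbers follow accession order and pair nothing. Of the lower genes, 61.2% were at 0 in the first 12m oocyte, the shallowest library, beside 34.1% of all genes kept. The part of depth in this was not tested.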
